A study of Mus musculus with 9 samples.

Results

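The genes that build and load MHC class I molecules, 10 of the 18349 genes listed in the count files, were followed by their symbols through iris RNA of injured and uninjured mice. They were the heavy chains H2-K1 and H2-D1, the light chain B2m, the peptide transport and loading genes Tap1, Tap2 and Tapbp, the transactivator Nlrc5, and the inducible proteasome subunits Psmb8, Psmb9 and Psmb10. All 10 passed the filter on low counts, which left 15010 genes for testing. The study had 9 libraries of 3 pooled irises each, with 3 libraries in each of 3 groups, all on a C57BL/6J background. The Sham VEGFR3 fl/fl group received PBS on the cornea. Injured VEGFR3 fl/fl mice, and the injured VEGFR3 iLECko mice, received corneal alkali injury (CAI) at 6 weeks of age. The cornea was exposed for 60 seconds to sodium hydroxide at 1 M in a volume of 0.5 μL. All groups carried floxed VEGFR3 alleles, and the iLECko mice also carried Prox1-CreERT2, a tamoxifen-dependent Cre under the promoter of a lymphatic endothelial transcription factor. The label that gives tamoxifen, 80 mg/kg on days 13 to 17 after injury, stands on every library. The mice were 10 weeks old at collection, 28 days from injury. The labels of 2 knockout libraries name another VEGFR number in the genotype tag, and their titles and descriptions were followed. Below, the 3 libraries of that group are called labelled iLECko.

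MHC class I molecules show peptides from inside the cell to CD8+ T cells and to receptors of natural killer and myeloid cells. The proteasome cuts cytosolic proteins, the transporter formed by TAP1 and TAP2 carries the peptides into the endoplasmic reticulum, and tapasin (Tapbp) holds an empty heavy chain with its light chain beside the transporter until a peptide fits. Interferon gamma and other inflammatory signals raise these genes, replace the 3 constitutive catalytic proteasome subunits with inducible ones, and act on class I promoters in part through NLRC5. The healthy anterior eye is known for low class I expression, a part of its immune privilege.

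The promoters of the heavy and light chains are shown because these members share sequence elements for factors of the class I promoter complex. The submitters' notes name mm10, and the RefSeq windows used here are on the same assembly (GRCm38.p6), with 250 bases before and 50 bases after a start. Windows were found for 8 of the 10 genes, and not for Tap2 and Nlrc5. H2-K1 had 2 overlapping windows, of which the first is described. Both strands were searched for 5 motifs. These were the interferon-stimulated response element (ISRE: GAAA, any 2 bases, GAAA), the interferon gamma-activated site (GAS: TTC, any 3 bases, GAA), a kappaB-like site (GGG, any 2 bases, TTCC), the CCAAT box, and the core of the cAMP response element (CRE, TGACG). In H2-K1, H2-D1 and B2m a CRE core was followed by a CCAAT box on the other strand, read as ATTGG, with its first base exactly 25 bases after that of the CRE. The X2 and Y boxes of class I promoters are elements of this kind. In the stretches below, read 5′ to 3′ in the direction of the gene, capitals mark the CRE core and the reversed CCAAT box.
H2-K1, chr17:34000359-34000388, minus strand: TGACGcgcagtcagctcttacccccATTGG
H2-D1, chr17:35262993-35263022, plus strand: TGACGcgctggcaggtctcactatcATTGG
B2m, chr2:122147609-122147638, plus strand: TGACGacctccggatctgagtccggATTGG

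The pair at this spacing occurred in 31 of 32851 promoter windows, 0.0944%, on either strand. The windows of H2-K1, H2-D1 and B2m were among them, as was that of H2-M3, the only hit among the 22 other class I genes with a window. Over the 30 bases H2-K1 and H2-D1 were identical at 23 positions, whereas B2m matched H2-K1 at 13 and H2-D1 at 12. The heavy chain promoters also shared a kappaB-like site, marked in capitals, 70 bases before the CRE core in both, and the 30 bases around it were identical at 29 positions.
H2-K1, chr17:34000439-34000468, minus strand: gcccagggctGGGGATTCCccatctccaca
H2-D1, chr17:35262913-35262942, plus strand: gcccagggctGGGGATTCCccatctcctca

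B2m held no kappaB-like site in its window but an ISRE 61 bases before its CRE core, and Psmb8 held a GAS 97 bases before its start. Tap1 and Psmb9 lie head to head, so that their windows overlap and the CRE core of Tap1 appeared in both. The Tapbp window held only CCAAT boxes on the other strand, and no match was found in the window of Psmb10. Of all windows, 3.44% held the ISRE, 8.30% the GAS, 5.82% the kappaB-like site, 37.4% a CCAAT box and 20.8% a CRE core. These matches describe letters, and binding was not measured. The ISRE, the GAS and the CRE core of Tap1 are in capitals here.
B2m, chr2:122147538-122147567, plus strand: ataagaacatGAAACTGAAAatgggaaagt
Psmb8, chr17:34198088-34198117, plus strand: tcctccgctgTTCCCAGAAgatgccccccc
Tap1, chr17:34187460-34187489, plus strand: cagagacaggTGACGacagagggtcctgcc

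**Figure D1:**
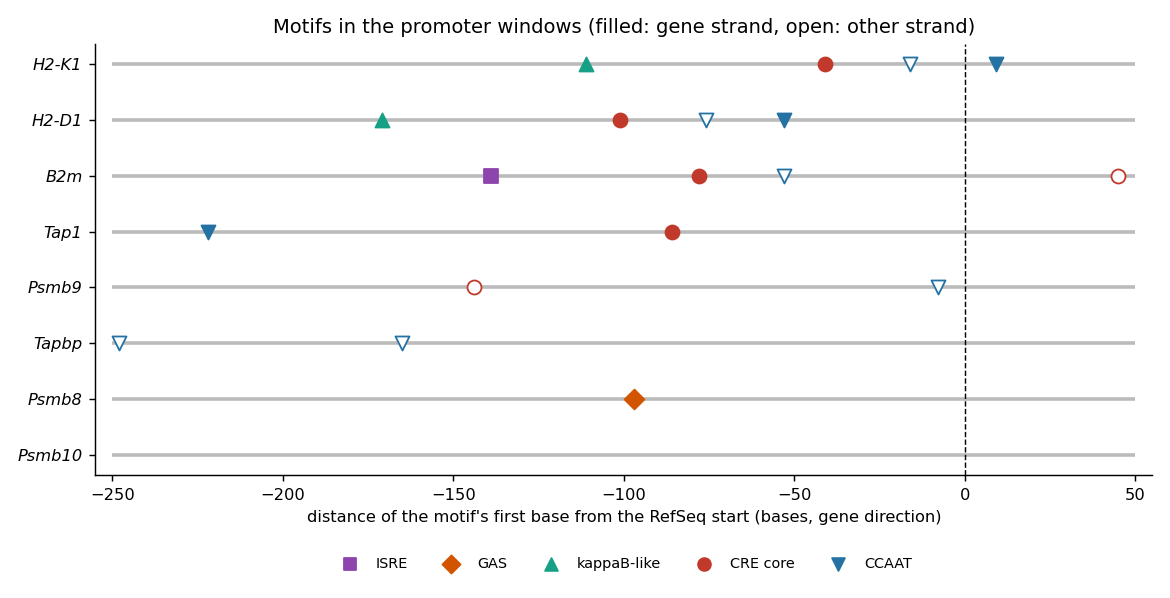
Position of motif matches in the promoter windows of 8 genes, with the distance of the motif's first base from the RefSeq start on the x axis in bases, filled on the gene's strand and open on the other. H2-K1, H2-D1 and B2m each have a CRE core (circle) 25 bases before an open CCAAT symbol.

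The 10 genes lie on chromosomes 2, 8 and 17, and 7 of them in the MHC region of chromosome 17. In GENCODE M21 (GRCm38), exons of Tap1 (chr17:34187553-34197225, plus strand) and Psmb9 (chr17:34181987-34187764, minus strand) overlap on opposite strands. Psmb8 (chr17:34197721-34201454) and Tap2 (chr17:34203527-34216321) share exon sequence with Gm20496. Whether the counting used strand is not given in the sources used here, and without it reads of Tap1 and Psmb9 in the overlap cannot be told apart. Of the 50-base words of its transcripts, the read length, H2-K1 (chr17:33996017-34000347) shared 9.63% with other genes and H2-D1 (chr17:35262730-35267499) shared 12.8%, each other and H2-Q and H2-K2 loci included. Counts of the heavy chains are therefore uncertain to the extent that such reads were split between them. B2m (chr2:122147686-122153083) and Psmb10 (chr8:105935735-105938444) shared none, and Nlrc5 (chr8:94434356-94527272) 0.338%. Tapbp (chr17:33915899-33929292) had the highest share of the 10 at 23.2%, and its exons overlap those of Gm19412 and Zbtb22.

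Totals per library ranged from 16617187 to 18306359 counts, and libraries of a group differed by more than counting noise. Flt4, the gene of VEGFR3, was not lower in the libraries labelled iLECko. In CPM, counts scaled to the TMM-normalized library size, it stood at 15.6, 13.4 and 14.9 CPM in Sham, 16.8, 20.7 and 22.97 CPM in injured VEGFR3 fl/fl irises and 27.9, 21.0 and 27.4 CPM in the libraries so labelled. The log2 difference between the injured groups was 0.33 ± 0.15 (SE, adjusted p = 0.200), and against Sham it was 0.80 ± 0.15 (SE, adjusted p = 0.00161), a called rise. Prox1, whose promoter drives the Cre, differed between the injured groups by -1.29 ± 0.66 (SE, log2, adjusted p = 0.256). Counts over a whole gene in whole iris do not show the loss of a gene segment in lymphatic endothelium, so these values do not check the deletion. Every direction given for the labelled iLECko libraries rests on their labels. Pigment cell markers were present in all libraries, and the 2 ciliary body markers together stayed between 1.44 and 3.64 CPM. The mean log2 CPM of 4 Y-linked genes was 3.58 to 5.18 in the Sham libraries and in injured VEGFR3 fl/fl replicates 1 and 2, and -0.67 to -0.53 in injured VEGFR3 fl/fl replicate 3 and all labelled iLECko libraries. Sex composition thus moved with genotype in the injured groups.

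CAI was followed by a rise of 8 of the 10 genes. H2-D1 rose 7.37-fold, Psmb8 5.33-fold, Nlrc5 4.59-fold and H2-K1 3.65-fold, followed by Psmb9 (3.36-fold), Tap1 (2.45-fold), Psmb10 (2.18-fold) and B2m (1.91-fold). Tap2 and Tapbp did not pass. A gene was called changed at an adjusted p under 0.05 by edgeR's quasi-likelihood test and a change of more than 1.5-fold. By this rule 22.1% of all genes tested were called higher in injured VEGFR3 fl/fl than in Sham and 17.5% lower. The median log2 fold change was 1.52 over the 10 genes and 0.01 over all genes tested. In all 10 genes every injured VEGFR3 fl/fl library stood above every Sham library, as it did in 33.9% of genes tested. Together the 10 genes took 0.180% to 0.214% of all counts in Sham libraries and 0.386% to 0.507% in injured VEGFR3 fl/fl libraries, against 0.321% to 0.348% in those labelled iLECko. A bulk library does not show whether more cells expressed a gene or each cell held more of its RNA.

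Against injured VEGFR3 fl/fl, edgeR's quasi-likelihood test called 0 of the 10 genes in the libraries labelled iLECko, where 0.573% of all genes tested were called higher and 0.466% lower. Of the 10 estimates, 9 were below 0, from -0.73 for Psmb8 to -0.24 for Tapbp, and that of Nlrc5 was 0.06. The median log2 fold change was -0.50, against -0.01 over all genes. Without regard to the fold, 1 of the 10 had an adjusted p under 0.05 (Tap1), and 8 had an unadjusted p under 0.05, as did 3674 of the 15010 genes tested. In 8 of the 10 genes every labelled iLECko library stood below every injured VEGFR3 fl/fl library, against 14.3% of genes tested. DESeq2 called 2 of the 10 lower, Psmb8 (adjusted p = 0.00113) and Psmb10 (adjusted p = 0.0118), and 1.97% of all genes it tested. Across the alternatives, the lowest adjusted p by edgeR or DESeq2 was also under 0.05 for H2-K1 (0.022), H2-D1 (0.011), B2m (0.028) and Psmb9 (0.032). None of these was called in any alternative, and for Tap2, Tapbp and Nlrc5 the lowest adjusted p stayed at 0.0531 or more. The highest adjusted p over the same alternatives was 0.238 or more for each of the 10, and 0.677 for H2-D1. Estimates ranged from -0.68 to -0.36 for H2-D1 and from -0.33 to -0.08 for Tapbp. When injured VEGFR3 fl/fl replicate 2 was left out, edgeR's test called Psmb8 (adjusted p = 0.0362) and Tap1 (adjusted p = 0.0391) lower, with 0.983% of all genes. Without Sham replicate 2 it called Psmb8 (adjusted p = 0.0498), with 0.25%. No other fit that left out a single library called any of the 10. With the only injured VEGFR3 fl/fl library that lacked Y-linked RNA as the comparison, an alternative added after the data were seen, edgeR called 0, where it called 0.0648% of all genes lower, and the same 9 estimates were below 0, from -0.73 for Psmb8 to -0.13 for Tapbp. In that fit the lone library is assumed to vary like the other groups.

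Against Sham, 6 of the 10 genes were called higher in the labelled iLECko libraries, with a background of 19.7% of genes called higher and 15% lower. These were H2-D1, Nlrc5, Psmb8, H2-K1, Psmb9 and Tap1. The median log2 fold change was 0.99. The 3 comparisons use the same 3 groups of libraries, so their values are given side by side and are not independent. The p-values measure the spread between these pools, and the sources used here do not give the litter or day of a pool.

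**Figure D2:**
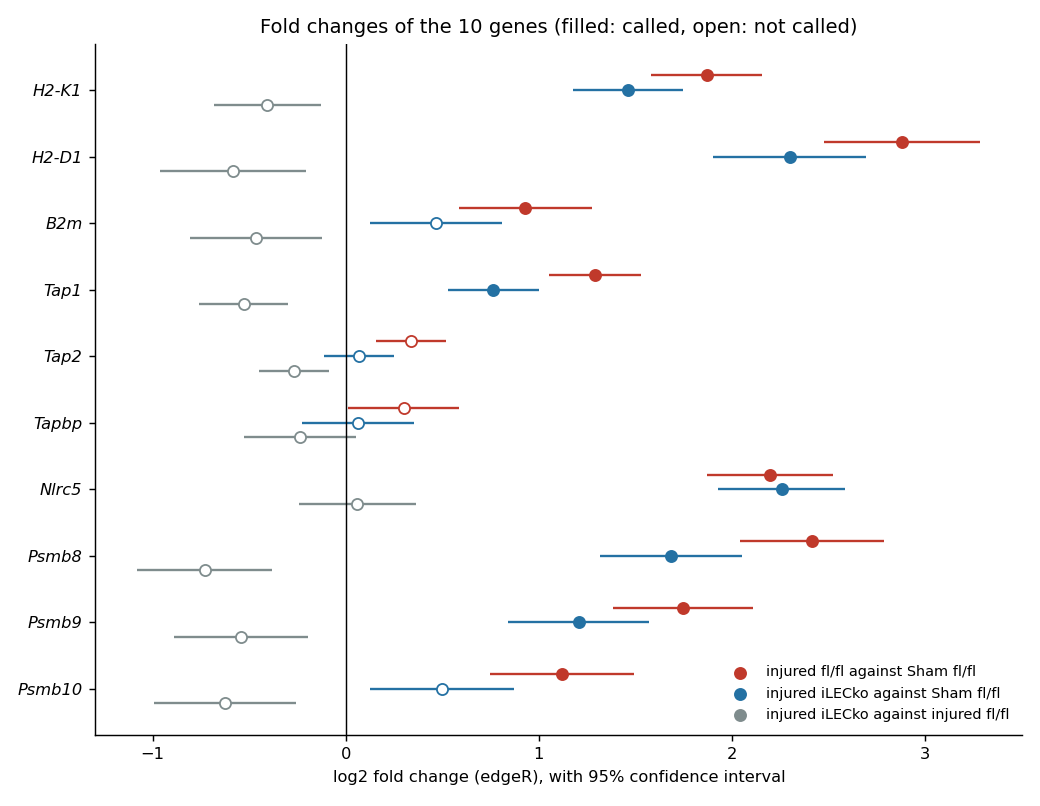
Log2 fold changes (x axis) of the 10 genes with 95% confidence intervals from edgeR in 3 comparisons, with filled points called. Red points (injured fl/fl against Sham) reach 2.88 for H2-D1, and grey points (iLECko against injured fl/fl) are open for all 10 genes and lie left of 0 for all but Nlrc5.

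The heavy chains carry the peptide groove. H2-K1 (NCBI Gene ID 14972), the H2-K heavy chain, stood at 146, 194 and 169 CPM in Sham, at 684, 545 and 629 CPM in the injured VEGFR3 fl/fl irises and at 449.5, 456 and 498 CPM in those labelled iLECko. The 3 groups did not overlap, with the labelled iLECko libraries between the other groups. After injury its log2 fold change was 1.87 ± 0.13 (SE, n = 3 against 3, adjusted p = 2.96e-06), and iLECko differed from injured VEGFR3 fl/fl by -0.41 ± 0.12 (SE, adjusted p = 0.105), which was not called.

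H2-D1 (NCBI Gene ID 14964), the H2-D heavy chain, stood at 174, 227 and 189.9 CPM in Sham, at 1850.4, 1253 and 1254 CPM in the injured VEGFR3 fl/fl irises and at 1046, 941 and 923 CPM in those labelled iLECko. Injured VEGFR3 fl/fl replicate 1 stood well above its other libraries, and the groups again did not overlap. The log2 fold change after injury was 2.88 ± 0.18 (SE, adjusted p = 1.73e-06), and the difference of iLECko from injured VEGFR3 fl/fl was -0.58 ± 0.17 (SE, adjusted p = 0.0938).

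Because the heavy chains share sequence, the counts of 20 class I loci were also summed. The sum rose after injury by 2.31 ± 0.16 on the log2 scale (SE, adjusted p = 2.86e-06), and iLECko differed from injured VEGFR3 fl/fl by -0.52 ± 0.15 (SE, adjusted p = 0.0946). H2-K1 and H2-D1 made up 72.8% to 74.5% of the sum in Sham libraries and 82.4% to 85.2% in injured VEGFR3 fl/fl libraries. The ratio of H2-D1 to H2-K1 counts was 1.19, 1.17 and 1.13 in Sham, 2.70, 2.30 and 1.99 in injured VEGFR3 fl/fl irises, and 2.33, 2.06 and 1.85 in those labelled iLECko. The ratio was higher in every injured VEGFR3 fl/fl library than in any Sham library (exact two-sided permutation test, p = 0.1, the smallest that 3 against 3 libraries allow), and the injured groups overlapped (exact p = 0.5).

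B2m (NCBI Gene ID 12010), beta-2 microglobulin, the light chain of class I and of class I-like molecules, stood at 1009.7, 1229 and 987 CPM in Sham, at 2434, 1658 and 2052 CPM in the injured VEGFR3 fl/fl irises and at 1601, 1381 and 1476 CPM in those labelled iLECko. It rose by 0.93 ± 0.15 on the log2 scale after injury (SE, adjusted p = 0.000645), an estimate below those of both heavy chains. The labelled iLECko libraries lay between the other groups without overlap, and their log2 difference to injured VEGFR3 fl/fl was -0.46 ± 0.15 (SE, adjusted p = 0.119). Against Sham they passed the adjusted p (0.0266) at a log2 fold change of 0.47 but not the fold threshold.

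**Figure D3:**
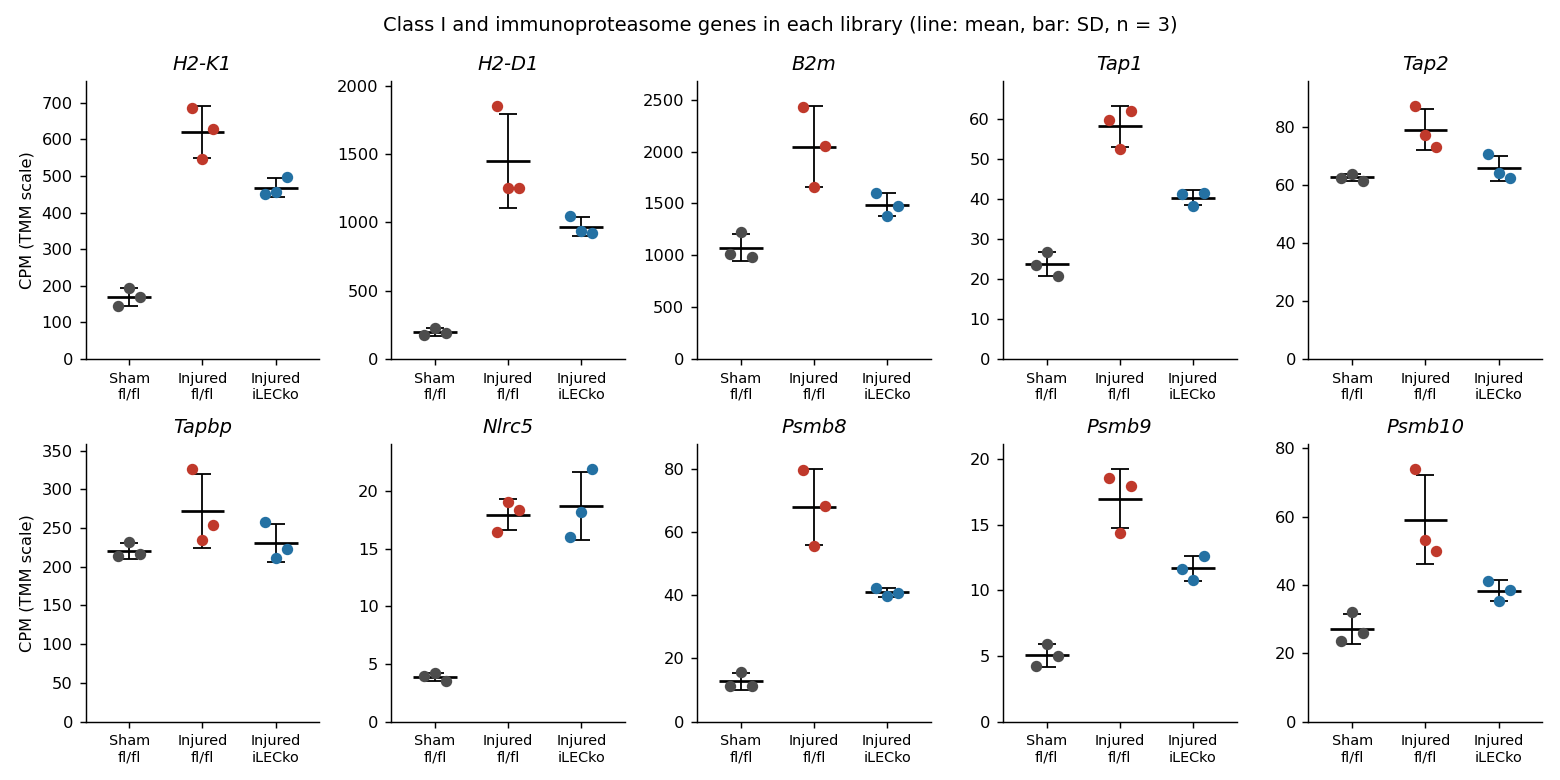
CPM on the TMM scale (y axis, from 0) of the 10 genes in each of 9 libraries, with the mean and SD of each group. The Sham libraries (grey) lie lowest for each gene that was called, and injured iLECko libraries (blue) lie between the others for H2-K1, H2-D1, B2m, Tap1, Psmb8, Psmb9 and Psmb10, but not for Nlrc5.

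The peptide transporter is a pair of ATP-driven subunits. Tap1 (NCBI Gene ID 21354) codes for one of them and stood at 23.4, 26.9 and 20.9 CPM in Sham, at 59.9, 52.5 and 62.1 CPM in the injured VEGFR3 fl/fl irises and at 41.2, 38.2 and 41.6 CPM in those labelled iLECko, with no overlap between any groups. It rose after injury by 1.29 ± 0.10 (SE, log2, adjusted p = 8.61e-06). In iLECko it was lower than in injured VEGFR3 fl/fl at an adjusted p of 0.0461, with a log2 fold change of -0.53 ± 0.10 (SE) that missed the threshold of 1.5-fold.

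Tap2 (NCBI Gene ID 21355), the other subunit, stood at 62.4, 63.9 and 61.3 CPM in Sham, at 87.0, 77.0 and 73.1 CPM in the injured VEGFR3 fl/fl irises and at 70.5, 64.2 and 62.2 CPM in those labelled iLECko. The injured VEGFR3 fl/fl libraries were above both other groups, while iLECko and Sham overlapped. The log2 fold change after injury of 0.34 ± 0.08 (SE) had an adjusted p of 0.00555 but was under the fold threshold, and iLECko differed from injured VEGFR3 fl/fl by -0.27 ± 0.08 (SE, adjusted p = 0.102). The ratio of Tap1 to Tap2 counts was 0.341 to 0.421 in Sham, 0.682 to 0.850 in injured VEGFR3 fl/fl irises, and 0.585 to 0.669 in those labelled iLECko, with no overlap between any groups (exact p = 0.1 in both comparisons made).

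Tapbp (NCBI Gene ID 21356), tapasin, which bridges the heavy chain to the transporter, stood at 214, 232 and 216 CPM in Sham, at 326, 235 and 254 CPM in the injured VEGFR3 fl/fl irises and at 258, 211 and 223 CPM in those labelled iLECko. The lowest injured VEGFR3 fl/fl library was only just above the highest Sham library, and iLECko overlapped both. Its log2 fold change after injury was 0.30 ± 0.13 (SE, adjusted p = 0.0695), with a 95% confidence interval from 0.01 to 0.59. Between the injured groups its log2 difference was -0.24 ± 0.13 (SE, adjusted p = 0.281).

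Nlrc5 (NCBI Gene ID 434341), the class I transactivator, had the lowest CPM per kilobase of the 10. It stood at 3.93, 4.24 and 3.55 CPM in Sham, from 71, 75 and 63 counts, at 16.4, 19.03 and 18.4 CPM in the injured VEGFR3 fl/fl irises and at 16.1, 18.2 and 21.9 CPM in those labelled iLECko. The injured groups overlapped and both lay far above Sham. The log2 fold change against Sham was 2.198 ± 0.15 (SE, adjusted p = 2.48e-06) in injured VEGFR3 fl/fl irises, and 2.26 ± 0.15 (SE, adjusted p = 2.95e-06) in those labelled iLECko. The difference between the injured groups was 0.06 ± 0.13 (SE, adjusted p = 0.803), with a 95% interval from -0.24 to 0.36.

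The other 9 genes, as the geometric mean of their counts, were set against Nlrc5 within each library. The ratio was 15.03, 17.4 and 17.4 in Sham, 12.3, 8.04 and 9.21 in injured VEGFR3 fl/fl irises, and 8.16, 6.52 and 5.72 in those labelled iLECko. Sham lay above both injured groups, and the injured groups overlapped in 1 library of each, with a log2 difference of -0.53 (exact permutation test, p = 0.2, where the design allows no p below 0.1). Of 7 genes for partners of NLRC5 on class I promoters (RFX subunits, NF-Y subunits and Creb1), edgeR called 0 in each of the 3 comparisons. After injury 4 of the 7 had an adjusted p and an unadjusted p under 0.05 without passing the fold. Without regard to the fold, 9000 of the 15010 genes tested had such an adjusted p and 9616 such an unadjusted p. The 4 are therefore not set apart from genes at large. The log2 fold changes of Rfxap (-0.42), Nfyc (-0.40) and Creb1 (-0.19) were below 0 and that of Nfya (0.43) above it. Between the injured groups 2 of the 7 had an unadjusted p under 0.05, as did 3674 of the 15010 genes tested.

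The inducible proteasome subunits are built into newly assembled core particles and change the peptides made. Psmb8 (NCBI Gene ID 16913) stood at 11.2, 15.8 and 11.2 CPM in Sham, at 79.7, 55.6 and 68.2 CPM in the injured VEGFR3 fl/fl irises and at 42.2, 39.6 and 40.8 CPM in those labelled iLECko. The labelled iLECko libraries lay close together between the other groups. Psmb8 rose after injury by 2.41 ± 0.17 (SE, log2, adjusted p = 3.03e-06), and iLECko differed from injured VEGFR3 fl/fl by -0.73 ± 0.15 (SE, adjusted p = 0.0548), which was not called.

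Psmb9 (NCBI Gene ID 16912), which lies next to Tap1, stood at 4.21, 5.93 and 5.01 CPM in Sham, at 18.6, 14.4 and 18.0 CPM in the injured VEGFR3 fl/fl irises and at 11.6, 10.8 and 12.6 CPM in those labelled iLECko. The groups did not overlap. The log2 fold change was 1.75 ± 0.16 (SE, adjusted p = 1.88e-05) after injury and -0.54 ± 0.15 (SE, adjusted p = 0.0909) between the injured groups.

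Psmb10 (NCBI Gene ID 19171), the inducible subunit encoded outside the MHC, stood at 23.5, 32.0 and 25.8 CPM in Sham, at 73.9, 53.2 and 50.02 CPM in the injured VEGFR3 fl/fl irises and at 41.3, 35.2 and 38.5 CPM in those labelled iLECko. Again the iLECko libraries lay between the other groups without overlap. The log2 fold change was 1.12 ± 0.17 (SE, adjusted p = 0.000333) after injury, -0.62 ± 0.16 (SE, adjusted p = 0.0772) between the injured groups and 0.50 ± 0.16 (SE, adjusted p = 0.0288) for iLECko against Sham, where it missed the fold threshold.

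Each inducible subunit takes the place of a constitutive one, Psmb8 of Psmb5, Psmb9 of Psmb6 and Psmb10 of Psmb7. Of the constitutive subunits, Psmb6 was called higher after injury (log2 fold change 0.68, adjusted p = 0.00278), whereas Psmb5 (0.48, adjusted p = 0.00391) and Psmb7 (0.31, adjusted p = 0.00992) were under the fold threshold. In counts, Psmb8 per Psmb5 was 0.232 to 0.309 in Sham and 0.755 to 1.18 in injured VEGFR3 fl/fl, a difference of 1.94 on the log2 scale. Psmb9 per Psmb6 was 0.0578 to 0.0675 and 0.118 to 0.165, a log2 difference of 1.08, and Psmb10 per Psmb7 was 0.385 to 0.440 and 0.643 to 0.890, a log2 difference of 0.80. In all 3 pairs the ratio was higher in every injured VEGFR3 fl/fl library than in any Sham library (exact two-sided permutation test, p = 0.1 each, the smallest possible).

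In the labelled iLECko libraries the ratio was 0.659 to 0.773 for Psmb8 to Psmb5, 0.104 to 0.124 for Psmb9 to Psmb6 and 0.482 to 0.561 for Psmb10 to Psmb7. Only the last did not overlap with injured VEGFR3 fl/fl, being lower in every library by a log2 difference of -0.49 (exact p = 0.1). The log2 differences of the others were -0.49 (exact p = 0.2) and -0.23 (exact p = 0.3). Of 12 such ratio tests, 6 of them on ratios chosen after the values were seen (H2-D1 to H2-K1, Tap1 to Tap2 and the 9 genes to Nlrc5), the adjusted p was 0.15 to 0.5. Of the 50-base words of Psmb5, 54.1% also occur in other genes (Gm3375, Mir686 and Psmb5-ps), so its counts are uncertain where such reads were split.

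**Figure D4:**
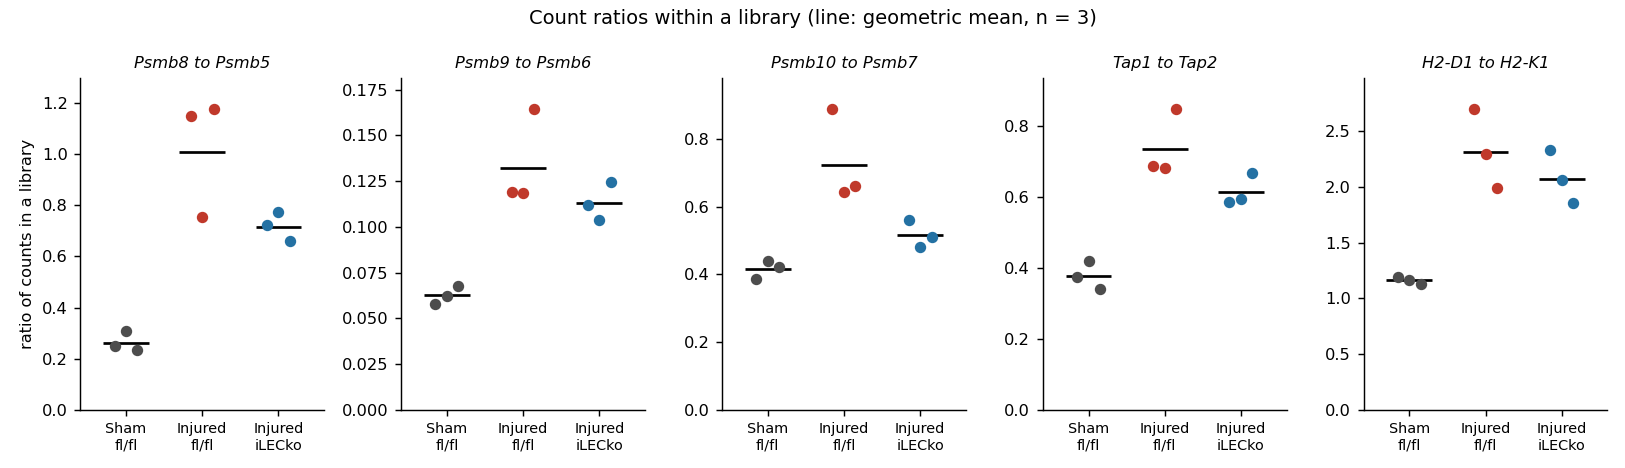
Ratio of counts within each library (y axis, from 0) for 3 inducible to constitutive proteasome subunits, Tap1 to Tap2 and H2-D1 to H2-K1, with the geometric mean of each group. All 5 ratios are higher in the injured fl/fl libraries than in Sham, and for Psmb8 to Psmb5 the Sham libraries lie at 0.232 to 0.309.

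Levels per kilobase of the longest coding transcript place the genes on 1 scale. In Sham, B2m was highest at 1250.1 ± 156 CPM per kilobase (SD, n = 3), followed by H2-K1 at 105 ± 15.1 and H2-D1 at 93.7 ± 13.0, which overlapped, and by Tapbp at 76.1 ± 3.51. Psmb10 (20.7 ± 3.36) and Tap2 (18.2 ± 0.373) overlapped, as did Tap1 (8.04 ± 1.02) and Psmb8 (7.81 ± 1.62), and Psmb9 (3.74 ± 0.637) and Nlrc5 (0.515 ± 0.0455) came last. In injured VEGFR3 fl/fl, H2-D1 reached 691 ± 164 CPM per kilobase and stood above H2-K1 (383 ± 43.5) in every library. Psmb8 (41.7 ± 7.40) there stood above Tap1 (19.7 ± 1.71) and overlapped Psmb10 (45.0 ± 9.90). For comparison, Psmb5, Psmb6 and Psmb7 had means of 53.4, 101.1 and 56.1 CPM per kilobase in Sham.

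Around the 10 genes, most other class I and class I-like loci tested rose after injury, and most genes of the general proteasome were higher at an adjusted p under 0.05 without passing the fold. Of 36 such loci listed, 22 were in the count files, 17 were tested and 14 were called higher, with a median log2 fold change of 1.23. H2-M2, a class Ib locus, had the largest fitted change, with 0 counts in every Sham library and 57, 31 and 44 in injured VEGFR3 fl/fl. Against 3 counts per Sham library it was at least 15.5-fold higher, a bound that covers counting error only. In the labelled iLECko libraries it had 20, 24 and 20 counts, at least 7.29-fold above the same floor. By edgeR 0 of the 17 loci were called against injured VEGFR3 fl/fl, with 5 at an unadjusted p under 0.05.

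Of 8 partners of folding, loading and trimming, 1 was called higher after injury, the aminopeptidase Lnpep (log2 fold change 0.84, adjusted p = 0.0360 by edgeR), whose libraries overlapped between the groups. Not called were Tapbpl (0.47), Uggt1 (0.42), Pdia3 (0.45), Hspa5 (0.54), Calr (0.27), Erap1 (0.06) and Canx (-0.15), given as log2 fold changes. Of 5 cytosolic peptidases tested, 2 were called higher, the larger estimate being that of Tpp2 (0.88, adjusted p = 6.17e-05). Of the PA28 and PA200 activators, Psme2 was called higher (0.66, adjusted p = 0.00230), and Psme1 (0.38), Psme3 (0.17) and Psme4 (0.13) were not. Of 12 further core subunits and assembly factors tested, 3 were called higher, the largest being Psma5 (0.67, adjusted p = 0.000946), and of 17 subunits of the 19S regulatory particle edgeR called 0. Without regard to the fold, 11 of the 12 core genes and 13 of the 17 regulatory subunits were higher at an adjusted p under 0.05 (and as many at an unadjusted p under 0.05), as were 3 of the 3 constitutive subunits and 5 of the 8 partners, against 31.5% of all genes tested. The median log2 fold change was 0.50 over the core genes, with 12 of 12 estimates above 0, and 0.32 over the regulatory subunits, with 16 of 17 above 0. Between the injured groups edgeR called 0 genes of these lists and of the constitutive subunits. An unadjusted p under 0.05 was reached there by 0 of the 8 partners, 1 of the 5 peptidases, 1 of the 4 activators, 4 of the 12 core genes, 0 of the 17 regulatory subunits and 1 of the 3 constitutive subunits.

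Interferon gamma signals through its receptor and JAK kinases, and IRF factors act downstream. Ifng RNA was not detectable beyond 1 count in any library at this depth. Of 10 other genes of the axis, 8 were called higher after injury, the largest rise being that of Irf8, a myeloid interferon regulatory factor, with a log2 fold change of 3.42 (adjusted p = 4.09e-08). Irf8 stood at 6.204, 6.61 and 7.43 CPM in Sham, at 78.0, 69.8 and 69.0 CPM in the injured VEGFR3 fl/fl irises and at 46.8, 40.8 and 40.8 CPM in the labelled iLECko libraries, and was called lower there than in injured VEGFR3 fl/fl (log2 fold change -0.76, adjusted p = 0.0214), as the only one of the 10. All 6 tested genes from a list of T cell, natural killer and myeloid receptors and coreceptors were called higher after injury. Whether each of them binds class I was not tested. Besides Pirb these were Cd8a, Cd8b1, Klrk1, Klrd1 and Klrb1c, all at low levels. The highest mean among the latter was 0.224 CPM in Sham (Cd8a) and 2.67 CPM in injured VEGFR3 fl/fl (Klrk1). Pirb, an inhibitory myeloid receptor for class I, rose most, from 4.15, 4.35 and 5.01 CPM in Sham to 194, 176 and 216 CPM (log2 fold change 5.44, adjusted p = 1.79e-08), and edgeR called 0 of the 6 between the injured groups, with 3 at an unadjusted p under 0.05.

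Summed pan-leukocyte and macrophage markers were higher after injury and lower in the labelled iLECko libraries than in injured VEGFR3 fl/fl, whereas neutrophil markers were higher in both injured groups without a lower level in iLECko. The summed CPM of 6 pan-leukocyte markers was 65.6 to 71.9 in Sham, 1220.3 to 1384 in injured VEGFR3 fl/fl irises, and 926 to 988 in those labelled iLECko. All 6 were called higher after injury and 1 was called lower in the labelled iLECko libraries than in injured VEGFR3 fl/fl. All 6 estimates were below 0 there, and 4 genes were lower in every library, against 14.3% of genes tested. Laptm5 made up 696, 767 and 808 CPM of the sum in injured VEGFR3 fl/fl irises, and 614, 530 and 425 CPM in those labelled iLECko. Ptprc overlapped between these groups, at 113, 110 and 148 CPM against 94.3, 115 and 155 CPM. The 12 macrophage markers summed, in the same order of groups, to 530.4 to 549, 12776 to 21208 and 8191 to 10156.5 CPM, with 11 called higher after injury and 6 called lower in iLECko than in injured VEGFR3 fl/fl. Lyz2, not among those 6, made up 17618, 9118 and 12445.5 CPM of the sum in injured VEGFR3 fl/fl irises. In those labelled iLECko it made up 7811, 7942 and 6154 CPM. Of the 12 estimates 1 was below 0 after injury, and 1 was above 0 between the injured groups. Of T cell markers 9 of 12 were in the count files, and they summed to 15.99 to 18.7, 175 to 371 and 203 to 329.6 CPM. Thy1, which is not limited to T cells, made up 116, 324 and 171 CPM of the sum in injured VEGFR3 fl/fl irises and 153, 190.5 and 296 CPM in those labelled iLECko. The injured groups overlapped in the sum, and edgeR called 0 of the 9 between them, with 2 at an unadjusted p under 0.05. Of the 9 estimates 7 were below 0 (median log2 fold change -0.46), and 4 genes were lower in every labelled iLECko library, against 14.3% of genes tested. Among the 4 was Cd3g, a chain of the T cell receptor complex. It stood at 5.89, 5.50 and 3.56 CPM in injured VEGFR3 fl/fl irises against 1.23, 2.78 and 1.73 CPM in iLECko (edgeR, adjusted p = 0.0913). The 6 neutrophil markers summed to 0.609 to 1.24, 84.96 to 221 and 188 to 857 CPM. Between the injured groups the log2 fold changes of the 3 tested were above 0, from 1.04 to 1.55, with 0 called by edgeR and 2 at an unadjusted p under 0.05. The 8 dendritic cell markers summed to 11.5 to 13.1, 184 to 289 and 111 to 216 CPM.

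Markers of iris pigment cells and muscle were lower after injury. The 6 pigment cell markers summed to 27482 to 29415 CPM in Sham, 3344 to 5771 CPM in injured VEGFR3 fl/fl irises, and 5008 to 7061 CPM in those labelled iLECko, with all 6 called lower after injury, as were 5 of 6 muscle markers. Blood endothelial markers summed to 528 to 566, 1287 to 1511 and 1289 to 1488 CPM. Of the other lists, B cell sums were at most 2.33 CPM in Sham and 37.9 CPM after injury. Lens sums were 45.9 to 162 CPM over all libraries and iris transcription factor sums 555 to 1153 CPM. Corneal epithelial sums were 8.95 to 56.0 CPM in Sham and 3.57 to 4.14 CPM in irises labelled iLECko. In injured VEGFR3 fl/fl irises they were 118, 5.21 and 15.3 CPM. Replicate 1 there also had the highest summed CPM of the 10 genes (5631). Lymphatic endothelial sums were 609 to 919 CPM, mostly from Pdpn and Reln. In every library Prox1 and Lyve1 stood at 4.49 CPM or less. Ccl21a stood at 0.388, 1.02 and 1.01 CPM in Sham, at 92.4, 4.62 and 0 CPM in injured VEGFR3 fl/fl irises and at 0.117, 0.170 and 0.345 CPM in those labelled iLECko. Of the 6 lymphatic estimates between the injured groups 4 were above 0 and 2 below, and edgeR called Reln higher in iLECko. The part of cell composition in the changes of the 10 genes was not tested.

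**Figure D5:**
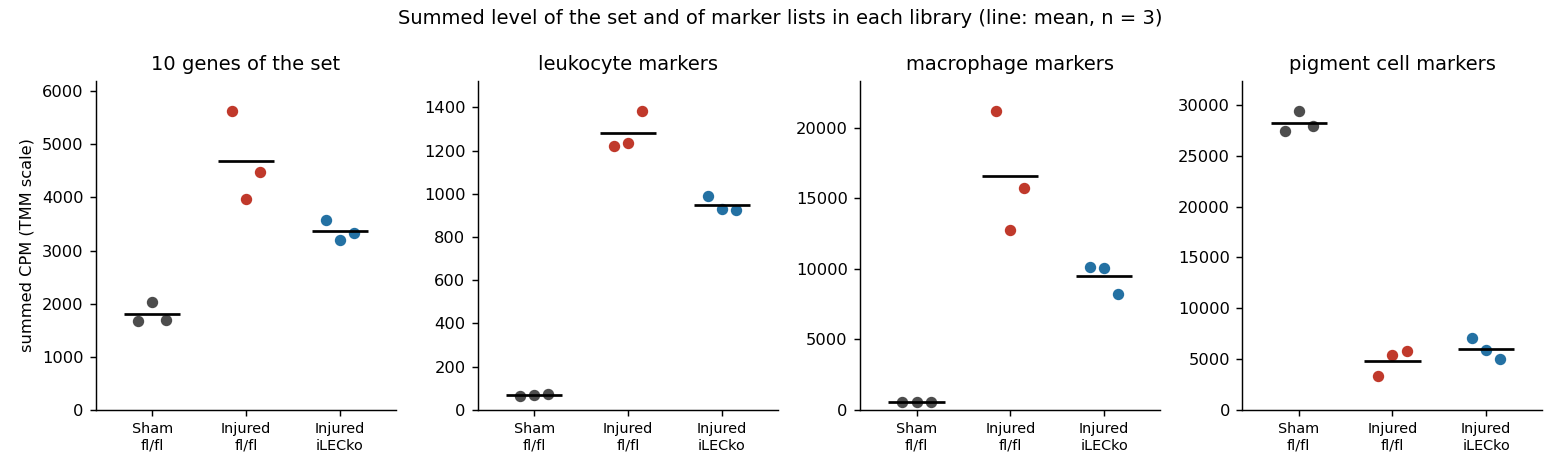
Summed CPM (y axis, from 0) of the 10 genes and of 6 leukocyte, 12 macrophage and 6 pigment cell markers in each library, with the mean of each group. The 10 genes, the leukocyte and the macrophage markers are lowest in Sham and highest in injured fl/fl, with iLECko between, and the pigment cell markers are highest in Sham, at 27482 to 29415 CPM. In both injured groups Lyz2 makes up most of the macrophage sum, and Laptm5 is the largest part of the leukocyte sum.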

How the data were processed

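The authors filtered single-end reads of 50 bases, aligned them with HISAT2 2.0.4 and Bowtie2 2.2.5 to mm10, per the labels, and deposited estimated counts per gene without normalization. The annotation and the program that estimated the counts are not given in the sources used here. Groups came from titles and descriptions, since genotype tags of 2 iLECko libraries named another VEGFR number. A combined table of the counts was not used. Counts were rounded in R 4.3.3. filterByExpr of edgeR 4.0.16 kept 15010 of 18349 genes. All 9 libraries were normalized by TMM (factors 0.90 to 1.09) and fitted with group as the only term. CPM are on the TMM scale. Genes were tested with glmQLFTest of edgeR (quasi-likelihood), with p-values adjusted by Benjamini and Hochberg's method across the 15010 genes, and count ratios with exact two-sided permutation tests. SE was computed from the F statistic. Alternatives were DESeq2 1.42.0, other scalings and filters, a covariate of Y-linked RNA, a block for the replicate number, and fits that left out single libraries. The comparison limited to injured libraries without Y-linked RNA and 3 of the ratios were added after the data were seen. The procedure was tested on simulated data.

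The members and gene lists were chosen with earlier results of these data known. The text names all 10 members, the called gene with the largest change of each list of class I, peptidase, proteasome and interferon genes, all constitutive subunits, loading partners and activators, and the 5 genes most like the set. For most marker lists the planned naming of such a gene was left out, and sums are given, with counts of calls for some. H2-M3, Thy1, Lyz2, Laptm5, Ptprc, Pdpn, Reln, Lyve1, the counts of Cd8a, the 4 promoter factors given with values and the spacing of promoter motifs were singled out after they were seen. Promoter sequences are RefSeq's and lengths GENCODE M21's. Protein sequences were planned for comparison and are not used here. Libraries are pools of 3 irises. The chi-square per degree of freedom between replicates was 5.21 to 78.2.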

Additional observations from a re-analysis of the deposited data

How the results depend on the processing

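Across the alternatives 8 to 9 of the 10 genes were called higher after injury and 6 to 8 higher in the labelled iLECko libraries than in Sham, and none of these calls was lost. With H2-K1 and H2-D1 merged into 1 sum of 20 class I loci, 7 and 5 of the resulting 9 features were called. The count called lower in the latter against injured VEGFR3 fl/fl, 0 as reported, was 2 with DESeq2, 1 with no fold threshold (Tap1) and 0 to 2 when single libraries were left out. Same-numbered libraries did not deviate together (correlations -0.37 to 0.16), so the numbers were not taken to pair them. With a replicate block 8, 0 and 6 genes were called in the 3 comparisons, as without it. Over all genes tested between the injured groups, 86 were called higher and 70 lower as reported, 11 and 13 with the block, 350 and 283 with DESeq2, 0 and 2 with the Y-linked covariate, and 0 and 0 with the 6 libraries alone or without labelled iLECko replicate 2. By library size only, 2783 genes were called higher and 3523 lower after injury, against 3323 and 2630. Estimates near 0 changed sign. Nlrc5 between the injured groups ranged from -0.066 to 0.160 on the log2 scale when single libraries were left out. For labelled iLECko against Sham, library size only gave -0.040 for Tap2 and -0.046 for Tapbp, and Tapbp ranged from -0.0225 to 0.127 when single libraries were left out. The cause of these changes was not tested. The depth of 63 to 75 counts limits Nlrc5 in Sham, and 3 libraries a group limit every exact permutation test to p = 0.1 or more.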

Other observations

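Over the 9 libraries, the 5 other genes whose log2 CPM correlated most with the mean of the 10 standardized genes, of 12139 genes with at least 5 CPM, were Txn1 (Pearson r = 0.995), Ciao2a (0.994), H2-T23 (0.994), Ctsz (0.993) and Tbkbp1 (0.993). These values describe 9 libraries in 3 groups that differ in the levels of cell type markers, and carry no test. H2-T23, a class Ib heavy chain that binds leader peptides of other class I molecules, stood at 30.8, 43.2 and 30.9 CPM in Sham, at 191, 105 and 135 CPM in injured VEGFR3 fl/fl libraries and at 89.1, 73.7 and 67.2 CPM in those labelled iLECko. The groups did not overlap. Its log2 fold change was 2.04 ± 0.23 (SE, adjusted p = 6.50e-05) after injury and -0.91 ± 0.22 (SE, adjusted p = 0.0684) between the injured groups. Ctsz, a lysosomal cysteine protease, rose by 1.72 ± 0.19 on the log2 scale (SE, adjusted p = 5.88e-05), and Txn1, thioredoxin, by 1.31 ± 0.14 (SE, adjusted p = 3.60e-05). Within the set, the correlation with the mean was 0.987 for Psmb8 and lowest for Tapbp (0.762), Tap2 (0.860) and Nlrc5 (0.865).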
